A study of Oryza sativa Japonica Group with 6 samples.

Results

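The genes described here belong, by their descriptions, to the folding machinery of the endoplasmic reticulum (ER) in rice grains. They are the genes whose description in the deposited table named a disulfide isomerase, a luminal-binding protein (BiP), calnexin, calreticulin, endoplasmin or an ER oxidoreductin. The rule took 32 of the 55983 genes listed. By description they were 15 disulfide isomerases, 9 BiP genes, 5 calreticulins, 1 calnexin, 1 endoplasmin and 1 ER oxidoreductin. They were compared between grains of the wild-type rice line Zhenong 34, with 3 libraries, and grains of its sgs3 mutant, with 3 libraries. The mutant carried a treatment label naming EMS, ethyl methanesulfonate, a chemical that causes mainly point mutations, and the wild type was labelled as its control. The labels name grain cells of Oryza sativa Japonica Group but give neither the stage of the grains nor the mutated gene nor the number of mutant lines. Whether replicate libraries stem from different plants is not stated, and the p-values therefore reflect library-to-library spread, which may be technical.

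Proteins that enter the ER are bound by BiP, an HSP70 chaperone that holds unfolded chains and releases them in cycles driven by ATP. Disulfide isomerases make and rearrange the bonds between cysteines, and ER oxidoreductin-1 passes on the oxidising power they need. Calnexin and calreticulin are lectins that hold unfolded glycoproteins whose trimmed sugar chain still carries its last glucose. Endoplasmin is the HSP90 of this compartment. In cereal endosperm this machinery handles the storage proteins: in rice, PDIL1-1 is known for the maturation of proglutelin and PDIL2-3 for the formation of prolamin protein bodies.

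Not every gene that the rule took is an ER folding gene by its other annotation. Of the 15 genes described as disulfide isomerases, 12 had a thioredoxin domain in the authors' domain column. The other 3 were LQY1 (LOC_Os03g14040), SCO2 (LOC_Os09g28480) and a second gene named disulfide-isomerase 5-4 (LOC_Os03g57100). LQY1 and SCO2 are known as chloroplast proteins in Arabidopsis, and the closest Swiss-Prot entry of LOC_Os03g57100 was a protein of the ERGIC3 family, which moves between the ER and the Golgi apparatus. Other annotation of LOC_Os09g28480 named a calmodulin-like protein, and that of LOC_Os03g14040 a chloroplast protein SPA. Whether these genes encode disulfide isomerases is therefore uncertain. An ER term in the annotation was present for 19 of the 32 genes.

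Expression was given as TPM, a length-normalised transcript level that sets each gene against the other transcripts of its own library. The depth behind these values is unknown. Because a few very abundant transcripts can push all others down on that scale, gene tests and class sums were repeated with median-of-ratios scaling, which divides each library by the median ratio of its genes to their geometric mean over the libraries. Those factors ran from 0.504 in mutant replicate 1 to 2.02 in wild-type replicate 1, and the scaling moved the median log2 fold change of all tested genes from -0.86 to 0.0028. Seed storage protein transcripts (glutelin, prolamin and globulin) took 5.97%, 34.9% and 27.6% of TPM in wild-type replicates 1 to 3 and 46.1%, 40.8% and 41.3% in mutant replicates 1 to 3. Cytosolic ribosomal protein transcripts took 16.4%, 3.68% and 6.62% in wild-type libraries, against 0.635%, 0.628% and 2.53% in mutant libraries. Wild-type replicate 1 thus stood apart from the other wild-type libraries in both lists. Oleosin and late embryogenesis transcripts, which mark embryo and aleurone, took 0.117% to 0.590% of TPM in wild-type libraries and 0.331% to 0.428% in the mutant, and green tissue markers took 0.00680% to 0.0713% and 0.00515% to 0.0739%. The table describes 2 genes by the name SUPPRESSOR OF GENE SILENCING 3, and LOC_Os12g09580 reached 94.92, 40.86 and 53.45 TPM in wild-type grains, against 8.73, 11.59 and 29.24 TPM in mutant grains. The other, LOC_Os12g09590, stood at 3.36, 3.67 and 3.48 TPM against 2.03, 3.4 and 2.61 TPM, with overlapping groups. The part of tissue makeup and storage transcript load in the differences below was not tested.

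Of the 32 genes, 21 reached 1 TPM in at least 3 libraries and entered the test: 12 of the 15 disulfide isomerases, 2 of the 9 BiP genes, 4 of the 5 calreticulins, and the calnexin, endoplasmin and ER oxidoreductin genes. The other 11 stayed at or below 2.34 TPM in every library, and 3 of them, BiP genes LOC_Os05g30480 and LOC_Os05g51360 and calreticulin-1 LOC_Os08g44670, were listed at 0 throughout. Expression was concentrated in a few genes. PDIL1-1 (LOC_Os11g09280) alone held 34.7% to 42.5% of the summed TPM of the 32 genes, and it ranked between position 57 and 151 among all genes of a library.

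On TPM, 8 of the 12 tested disulfide isomerases, the ER oxidoreductin, the endoplasmin, the calnexin and the main calreticulin gene fell in the mutant, and neither tested BiP gene passed the test. With limma on log2(TPM + 1), fitted over 16352 genes with Benjamini-Hochberg adjustment and a threshold of 0.05, 12 of the 21 tested genes fell and 0 rose. Over all genes tested, 26.3% fell. The median log2 fold change was -1.35 for the 21 genes and -0.86 for all genes tested. The sign was negative in 21 of 21, and in 14293 of all 16352 tested genes. In 14 of 21 every mutant library lay below every wild-type library, a pattern that 52.6% of all tested genes showed. After scaling, 0 of the 21 passed in limma, where the smallest adjusted p was 0.0800. Of all tested genes 0.978% fell on that scale. At an unadjusted limma p under 0.05, 6 of the 21 were lower in the mutant, beside 2768 of all 16352 tested genes. The median after scaling was -0.29, against 0.0028 for all genes. A negative sign was left in 15 of 21, beside 8144 of all 16352 tested genes. In 8 of 21 the groups still did not overlap, all lower in the mutant, beside 19.4% of all tested genes. In bulk samples fewer cells of a type and less RNA per cell cannot be told apart.

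**Figure D1:**
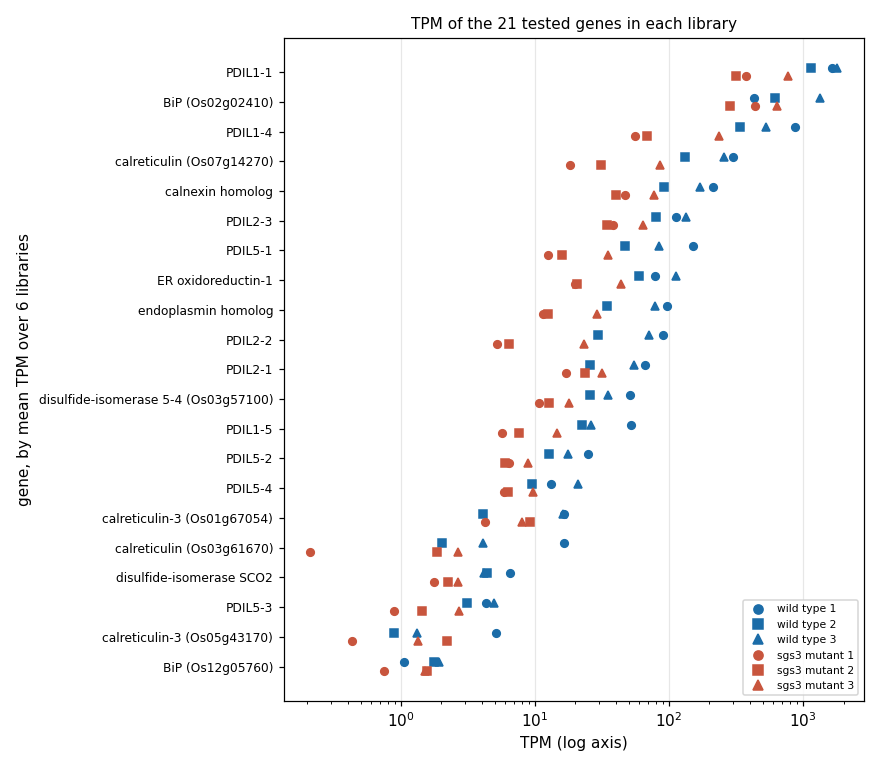
TPM on a log axis for each of the 21 tested genes, one symbol per library (blue, 3 wild-type libraries; red, 3 mutant libraries). In 14 of the 21 genes all red symbols lie left of all blue ones, a pattern that 52.6% of all tested genes show. Mutant replicate 3 (red triangle) is the highest mutant library in 18, and its median-of-ratios factor is also the highest of the mutant libraries.

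The calls on TPM were close to the threshold and depended on which libraries were included. Many genes shared the same adjusted p of 0.0436. The 12 calls became 0 without wild-type replicate 1, wild-type replicate 3, mutant replicate 1 or mutant replicate 2, and became 15 without wild-type replicate 2 and 13 without mutant replicate 3. In those 4 fits with 0 calls, between 51 and 300 of all tested genes fell. Over all 16352 tested genes, 7745 fell without wild-type replicate 2 and 5578 without mutant replicate 3, against 4295 with all libraries. Mutant replicate 3 was the highest mutant library in 18 of the 21 tested genes, and in 12 of them it was at least 1.5 times each of the other mutant libraries. Wild-type replicate 2 was the lowest wild-type library in 18 of 21, and the highest was replicate 1 in 14 and replicate 3 in 7. The median-of-ratios factors of the libraries had the same order. They were 2.02, 1.08 and 1.54 in wild-type replicates 1 to 3 and 0.504, 0.687 and 0.955 in mutant replicates 1 to 3. The order is thus not particular to these genes, and its share over all tested genes was not counted.

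PDIL1-1, the most abundant of the disulfide isomerases, was measured at 1653, 1139 and 1793 TPM across wild-type libraries and at 377, 313 and 766 TPM across mutant libraries. The groups did not overlap, with mutant replicate 3 nearest to the wild type. On the log2 scale this gave -1.74 on TPM (SE 0.50, adjusted p = 0.0440 by limma), and -0.63 with scaling (SE 0.41, adjusted p = 0.308). PDIL1-4 (LOC_Os02g01010), a close relative of PDIL1-1 by its annotation, reached 874, 339 and 527 TPM in wild-type grains, against 55.7, 68.4 and 234 TPM in mutant grains. Mutant replicate 3 again stood above the other mutant libraries, though below the lowest wild-type value. By limma the log2 fold change came to -2.47 on TPM (SE 0.61, adjusted p = 0.0436) and to -1.36 once scaled (SE 0.41, adjusted p = 0.0904). Within the summed TPM of the 32 genes, PDIL1-4 took 20.5%, 12.7% and 11.1% in wild-type libraries, against 5.18%, 7.58% and 11.2% in mutant libraries, so that mutant replicate 3 lay at the level of wild-type replicate 3.

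PDIL1-5 (LOC_Os06g06790), the third tested gene of this subgroup, was measured at 51.6, 22.5 and 26.3 TPM across wild-type libraries and at 5.71, 7.54 and 14.5 TPM across mutant libraries. The groups did not overlap on either scale. On the log2 scale this gave -1.75 on TPM (SE 0.45, adjusted p = 0.0436 by limma), and -0.71 with scaling (SE 0.23, adjusted p = 0.102). PDIL1-2 (LOC_Os04g35600) and PDIL1-3 (LOC_Os02g34940) did not reach the minimum for testing, with highest values of 1.99 and 0.20 TPM.

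The PDIL2 genes, related to the mammalian isomerase PDIA6 by their annotation, gave unlike values, though differences between genes were not tested. PDIL2-2 (LOC_Os01g23740) reached 89.6, 29.4 and 71.2 TPM in wild-type grains, against 5.24, 6.42 and 23.4 TPM in mutant grains, with no overlap on either scale. By limma it fell on TPM (log2 fold change -2.49, SE 0.61, adjusted p = 0.0436) and missed the threshold after scaling (-1.44, SE 0.40, adjusted p = 0.0834). PDIL2-3 (LOC_Os09g27830) was measured at 113, 79.6 and 134 TPM across wild-type libraries and at 38.1, 34.1 and 63.7 TPM across mutant libraries. These groups did not overlap on TPM but did after scaling, where the log2 fold change went from -1.27 (SE 0.39, limma adjusted p = 0.0462) to -0.17 (SE 0.28, adjusted p = 0.686). PDIL2-1 (LOC_Os05g06430) overlapped between the groups on both scales and did not pass, with log2 fold changes of -0.93 on TPM and 0.15 after scaling.

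Of the PDIL5 genes, PDIL5-1 (LOC_Os03g17860) showed the lowest fold change. It reached 150, 47.1 and 84.5 TPM in wild-type grains, against 12.4, 15.9 and 35.3 TPM in mutant grains. All mutant libraries lay below all wild-type libraries on both scales, with mutant replicate 3 and wild-type replicate 2 nearest to each other. By limma the log2 fold change came to -2.08 on TPM (SE 0.53, adjusted p = 0.0436) and to -1.0 once scaled (SE 0.29, adjusted p = 0.0878). PDIL5-2 (LOC_Os04g35290) also fell on TPM, at -1.23 (SE 0.36, limma adjusted p = 0.0448), and overlapped after scaling. PDIL5-3 (LOC_Os02g34530) and PDIL5-4 (LOC_Os07g34030) did not pass, with log2 fold changes of -0.98 and -0.88 on TPM. The ERGIC3-related gene LOC_Os03g57100 was measured at 51.0, 25.7 and 35.2 TPM across wild-type libraries and at 10.7, 12.7 and 17.9 TPM across mutant libraries, and it fell on TPM at -1.35 (SE 0.38, limma adjusted p = 0.0436). Its groups stayed apart after scaling at a smaller difference of -0.29 (SE 0.18). LOC_Os09g28480, described as SCO2, had a log2 fold change of -0.89 on TPM and did not pass.

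ER oxidoreductin-1 (LOC_Os03g52340), which reoxidises the isomerases, reached 79.0, 59.7 and 113 TPM in wild-type grains, against 19.8, 20.5 and 43.8 TPM in mutant grains. The groups did not overlap on TPM, and they did after scaling. On the log2 scale this gave -1.60 on TPM (SE 0.43, adjusted p = 0.0436 by limma), and -0.51 with scaling (SE 0.30, adjusted p = 0.265). Its share of the summed TPM of the 32 genes was nearly level, at 2.16% ± 0.27 (SD, n = 3) in the wild type and 2.07% ± 0.22 (SD, n = 3) in the mutant (exact two-sided permutation p = 0.7).

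Among the class sums on TPM, that of the BiP genes had the log2 ratio nearest 0, at -0.82. LOC_Os02g02410, described as luminal-binding protein 3 with rice BIP1 as its closest Swiss-Prot entry, held nearly all BiP expression. It was measured at 429, 618 and 1343 TPM across wild-type libraries and at 436, 282 and 635 TPM across mutant libraries. The groups overlapped, since wild-type replicate 1 lay below mutant replicates 1 and 3, and only wild-type replicate 3 lay above every mutant library. In limma it did not pass on TPM (log2 fold change -0.73, SE 0.55, adjusted p = 0.291) or after scaling, where its sign turned (0.38, SE 0.60, adjusted p = 0.669). The 95% interval of the TPM value ran from -1.98 to 0.53, so that it holds both a fall larger than that of PDIL1-1 and a rise. The other tested BiP gene, LOC_Os12g05760, stayed between 0.75 and 1.91 TPM and did not pass in limma (log2 fold change -0.19, SE 0.30, adjusted p = 0.615). Copies of BiP are similar in sequence and the sources used here do not say how reads were divided among them, so values of single copies are uncertain.

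The endoplasmin homolog (LOC_Os06g50300) reached 96.0, 34.7 and 78.1 TPM in wild-type grains, against 11.6, 12.4 and 29.2 TPM in mutant grains. Every mutant library lay below every wild-type library on both scales. By limma the log2 fold change came to -1.92 on TPM (SE 0.51, adjusted p = 0.0436) and to -0.84 once scaled (SE 0.28, adjusted p = 0.105).

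Of the lectins, the calnexin homolog (LOC_Os04g32950) was measured at 212, 91.3 and 169 TPM across wild-type libraries and at 47.0, 40.04 and 77.6 TPM across mutant libraries. The groups did not overlap on TPM and overlapped after scaling. On the log2 scale this gave -1.48 on TPM (SE 0.44, adjusted p = 0.0450 by limma), and -0.38 with scaling (SE 0.27, adjusted p = 0.348). The main calreticulin gene (LOC_Os07g14270) reached 299, 130 and 255 TPM in wild-type grains, against 18.1, 31.1 and 84.9 TPM in mutant grains. It was the lowest of the 21 genes by fold change, at -2.53 (SE 0.59, limma adjusted p = 0.0436), and 3.03% of all tested genes had a lower value. After scaling the groups still did not overlap, at -1.43 (SE 0.37, adjusted p = 0.0800).

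None of the other 3 tested calreticulins passed on either scale in limma. LOC_Os03g61670, which shares its closest Swiss-Prot entry with LOC_Os07g14270, stayed at or below 16.6 TPM, with a log2 fold change that did not pass (-1.48, SE 0.67, limma adjusted p = 0.105). The calreticulin-3 genes LOC_Os01g67054 and LOC_Os05g43170 overlapped between the groups, with log2 fold changes of -0.56 and -0.44 on TPM and 0.44 and 0.22 after scaling.

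**Figure D2:**
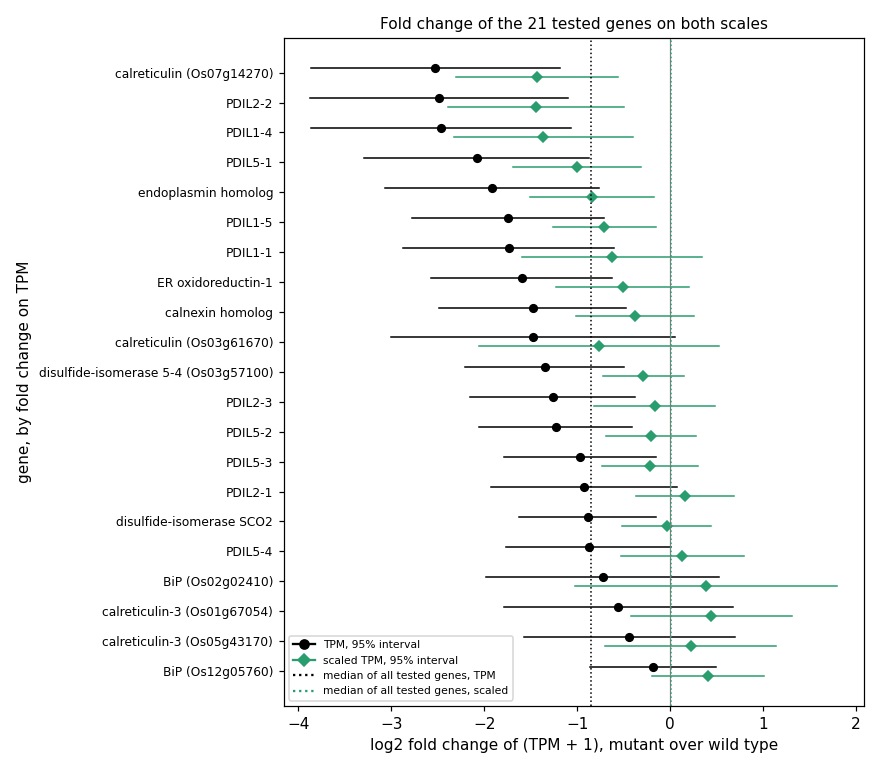
Log2 fold change of (TPM + 1) for the 21 tested genes, mutant over wild type, with 95% intervals from limma, on TPM (black circles) and after median-of-ratios scaling (green diamonds). The dotted lines are the medians of all tested genes, -0.86 and 0.0028. The calreticulin LOC_Os07g14270 and PDIL2-2 are lowest and both BiP genes lie near the other end, with scaled values above 0.

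Sums over a class were compared with exact two-sided permutation tests over libraries, for which 3 against 3 allows no p below 0.1. The summed TPM of the 32 genes was 4257, 2682 and 4759 in wild-type libraries, against 1075, 902 and 2095 in mutant libraries, a p of 0.1. It made up 0.440%, 0.272% and 0.484% of all TPM in wild-type libraries and 0.108%, 0.0908% and 0.212% in the mutant. The disulfide isomerases summed to 2538 ± 711 TPM (SD, n = 3) in the wild type and 749 ± 400 (SD, n = 3) in the mutant (permutation p = 0.1). The BiP genes summed to 799 ± 484 TPM (SD, n = 3) and 453 ± 177 (SD, n = 3), with overlapping groups (permutation p = 0.5). After scaling, the sums of disulfide isomerases, calreticulins and endoplasmin were still without overlap (permutation p = 0.1 each), and for the sum of all 32 genes the groups overlapped (permutation p = 0.3).

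Shares among the 32 genes do not depend on how libraries are scaled. Disulfide isomerases took 72.8%, 64.8% and 58.3% of the summed TPM in wild-type libraries and 49.9%, 55.5% and 57.8% in the mutant (permutation p = 0.1). BiP took 10.1%, 23.1% and 28.3% in wild-type libraries, against 40.6%, 31.5% and 30.4% in mutant libraries (permutation p = 0.1). Both classes together held most of the sum, so their shares largely mirror each other and are not separate results. The summed BiP TPM itself was not higher in the mutant, with a log2 ratio of -0.82. The groups did not overlap in either share, but wild-type replicate 3 and mutant replicate 3 lay close together, and wild-type replicate 1 and mutant replicate 1 lay at the extremes. Without wild-type replicate 1 the difference in mean share shrank from -10.9 to -7.18 percentage points for the isomerases and from 13.7 to 8.48 for BiP. Calreticulins took 7.92%, 5.12% and 5.82% in wild-type libraries, against 2.14%, 4.93% and 4.62% in mutant libraries, again without overlap (permutation p = 0.1). The difference of -2.39 percentage points between the means became -1.57 without wild-type replicate 1 and -1.51 without mutant replicate 1. Shares of calnexin, endoplasmin and ER oxidoreductin overlapped between the groups. PDIL1-1 was present at 3.85, 1.84 and 1.34 times the TPM of the BiP gene LOC_Os02g02410 in wild-type libraries, against 0.86, 1.11 and 1.21 times in mutant libraries.

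**Figure D3:**
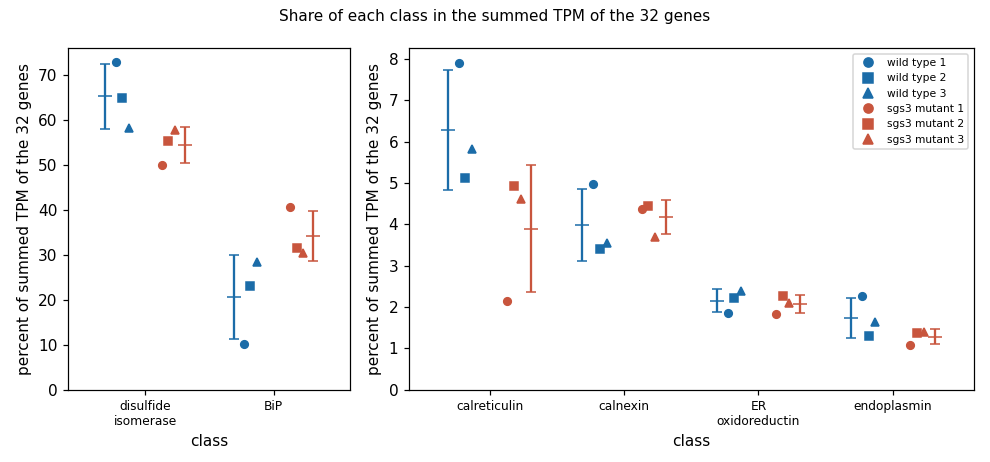
Share of each class in the summed TPM of the 32 genes, in percent, for each library (blue, wild type; red, mutant), with bars for the mean and SD of 3 libraries; the scales of the panels differ. The share of disulfide isomerases is lower and that of BiP higher in every mutant library. Replicates 3 of both groups lie close together, at 58.3% and 57.8% for the isomerases.

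Set against the storage protein transcripts, the 32 genes together had 73.7, 7.77 and 17.5 TPM per 1000 TPM of storage transcripts in wild-type libraries, against 2.34, 2.23 and 5.12 in mutant libraries (exact two-sided permutation p = 0.1). The groups did not overlap, and wild-type replicate 1, with few storage transcripts, stood far above the others.

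Genes of related functions were counted in the same way, in lists that held no gene of the set above. The counts that follow are on TPM, where 26.3% of all tested genes fell. After scaling no gene of these lists fell, while 0.978% of all tested genes did, and list medians are given on both scales. Of 4 tested J-domain and BiP cofactor genes, 3 fell, among them a stromal cell-derived factor 2-like gene (LOC_Os08g34190) at -1.25 on TPM (SE 0.34, limma adjusted p = 0.0436) and -0.15 after scaling. The list median was -1.32 on TPM and -0.26 after scaling. The DnaJ subfamily B member 11 gene (LOC_Os05g06440), a BiP partner in mammals, had -0.72 on TPM and 0.37 after scaling and did not pass. Of 12 tested genes of glycan addition and the calnexin cycle, 9 fell, with a median log2 fold change of -1.86 on TPM and -0.84 after scaling. They included oligosaccharyltransferase subunit 3 (LOC_Os03g36730) at -1.99 on TPM (SE 0.47, limma adjusted p = 0.0436) and -0.93 after scaling. The glucosyltransferase that marks unfolded glycoproteins for calnexin (LOC_Os02g44510) had -1.02 on TPM and 0.036 after scaling and did not pass.

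Translocation genes, whose products bring chains to and through the ER membrane, fell in 28 of 43 tested, with a median of -1.66 on TPM and -0.60 after scaling. The list also took chloroplast and mitochondrial import genes. Without those names, left out after the values were seen, 22 of 24 fell, with medians of -1.84 and -0.75. A signal peptidase complex subunit 2 gene (LOC_Os02g35720) was measured at 87.8, 51.2 and 70.8 TPM across wild-type libraries and at 15.8, 14.8 and 27.1 TPM across mutant libraries. It fell by limma on TPM (log2 fold change -1.83, SE 0.38, adjusted p = 0.0436) and had -0.75 after scaling. ER-associated degradation genes, which remove misfolded chains, fell in 4 of 10 tested, with a median of -1.21 on TPM and -0.14 after scaling. Derlin-1 (LOC_Os05g09550) was among them, at -1.24 on TPM (SE 0.36, limma adjusted p = 0.0444) and -0.16 after scaling (adjusted p = 0.631). So were homologs B (LOC_Os05g31220) and C (LOC_Os06g01980) of cell division control protein 48, a name by which this list took several genes. Whether those genes act in this pathway was not tested. Of 20 tested HSP70 and HSP90 genes outside the set 6 fell, which is 30.0% and near the 26.3% of all tested genes. Their median was nevertheless -1.42 on TPM and -0.44 after scaling, against -1.35 and -0.29 for the 21 genes of the set.

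Among 4 genes listed here by locus as regulators of the unfolded protein response, which raises ER chaperones when unfolded chains build up, 2 fell on TPM. The list median was -0.99 on TPM and 0.071 after scaling, where 2 of the 4 were negative, so its direction depended on the scale. Both are described as TGACG-sequence-specific DNA-binding protein TGA-1B. LOC_Os05g34050 reached 18.6, 7.67 and 14.5 TPM in wild-type grains, against 2.40, 3.23 and 6.25 TPM in mutant grains, and fell by limma on TPM (log2 fold change -1.55, SE 0.44, adjusted p = 0.0437), with -0.60 after scaling. LOC_Os07g44950 had -1.08 on TPM (SE 0.35, limma adjusted p = 0.0490) and -0.029 after scaling. The gene described as the kinase and endoribonuclease IRE1b (LOC_Os07g28820) and the HY5-like factor LOC_Os06g41770 had -0.67 and -0.90 on TPM and 0.17 and 0.18 after scaling, and did not pass.

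**Figure D4:**
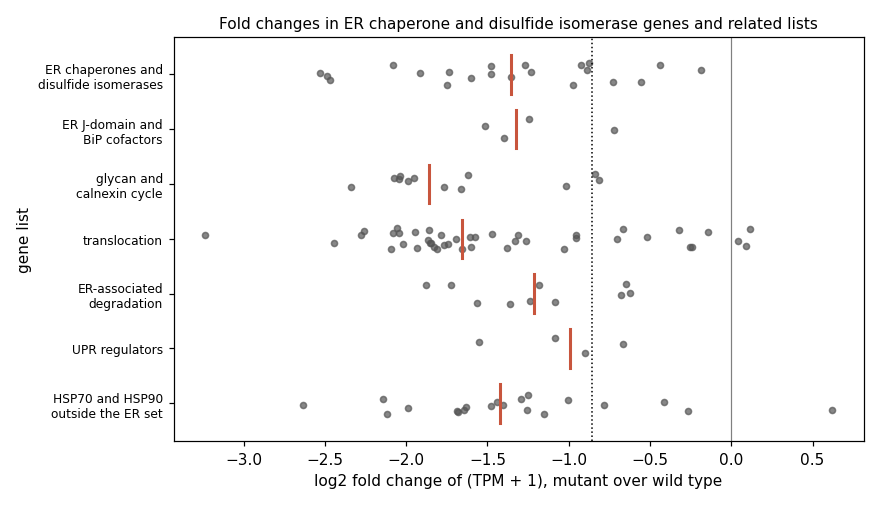
Log2 fold change of (TPM + 1), mutant over wild type, for each tested gene (grey points, spread vertically for visibility) of the 21 ER chaperone and disulfide isomerase genes and of 6 related lists, with list medians (red bars) and the median of all tested genes at -0.86 (dotted line). On this scale list medians run from -0.99 for regulators of the unfolded protein response to -1.86 for glycan addition and the calnexin cycle; after scaling (not drawn) these were 0.071 and -0.84, with 0.0028 for all tested genes.

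Splicing was given as inclusion levels, the share of a gene's junction reads, adjusted for length, that carry the longer form. The deposited splicing tables held 11 events in 9 of the 32 genes, and 7 of these had at least 20 junction reads in every library. None of the 7 was called with a quasi-binomial model with limma-moderated dispersion at an adjusted p under 0.05 and a difference of at least 0.1, against 0.548% of all 5471 events tested. The smallest adjusted p was 0.141 and 1 event had an unadjusted p under 0.05. Events other than exon skipping listed 2 wild-type and 3 mutant libraries, without replicate numbers.

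That event was a retained intron of ER oxidoreductin-1 within an exon at chromosome 3, positions 30065889 to 30066155 on the minus strand, in a genome build not given in the sources used here. Its inclusion level was 0.878 and 0.866 in the wild-type libraries, from 73 and 111 junction reads. In the mutant libraries it was 0.730, 0.562 and 0.589, from 26, 21 and 42 reads. All mutant values lay below both wild-type values, at a mean difference of -0.245 (unadjusted p = 0.00304, adjusted p = 0.141 with limma-moderated dispersion). The authors' deposited table gave this event an FDR of 0.00868 in their own test. Another intron of the same gene was retained at under 0.01 in every library, with 132 to 727 reads.

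The authors' deposited table also marked a retained intron of calreticulin-3 LOC_Os01g67054, at a difference of -0.096 and an FDR of 0.0288. It marked an alternative 3' splice site of PDIL5-4 as well, at a difference of 0.124 and an FDR of 0.0132. Each had fewer than 20 reads in at least 1 library and was not among the 7 events. For PDIL1-1, the event with the most reads, 3268, 3975 and 6574 mutant reads and 11595 and 18421 wild-type reads gave an intron retention below 0.001 in every library.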

How the data were processed

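Grain RNA of 3 wild-type and 3 mutant libraries was made with a SMARTer mRNA kit, per the labels. The authors deposited TPM per gene, in a table named as counts. The submitters' processing notes name, with no role, RSEM, StringTie, Bowtie2, DESeq2 1.12.4 and HISAT2 2.1.0. The genome build and gene models were not given in the sources used here. The depth behind TPM is unknown. The authors deposited splicing tables with inclusion levels as a fraction, junction reads, and a p-value and FDR of their own test. Read columns there were headed with the opposite group to the inclusion columns. Groups followed the inclusion headings, which the recomputed levels matched within 0.0005. The reads under those headings also followed TPM in 94.9% of 6145 events in genes at least 2-fold apart. In 66 cells of event and group the reads were missing and were left out.

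Genes were tested on log2(TPM + 1) with limma 3.58.1 (R 4.3.3), using a trended prior variance and 4 residual degrees of freedom. Fold changes on that scale understate changes of low genes. Splicing used a quasi-binomial model with limma-moderated dispersion. Both were run on simulated data with known changes. The gene simulation capped each gene's spread at the median spread and held no shift shared by a whole library. It therefore does not cover the differences between libraries seen here. Class sums and shares used exact permutation tests. Python 3.11.15 with numpy 2.4.6, pandas 2.3.3 and matplotlib 3.10.9 made tables and figures. Of the 32 genes, values in every library are given for those with a mean of at least 50 TPM and for called ones whose groups did not overlap on both scales. Up to 3 called genes with the smallest p may be named per pathway list, and pathway genes named without a call were chosen after their values were seen. The members and lists were chosen with earlier results of these data known.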

Additional observations from a re-analysis of the deposited data

How the results depend on the processing

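The 12 genes that fell on TPM were also 12 with a pseudocount of 0.1, with a minimum mean of 5 TPM and in limma without a trend. Over all tested genes, 3921, 3951 and 4340 fell in those fits, in that order. The minimum mean of 5 TPM left 16 of the 21 genes and 9674 genes in all. The count was 0 after median-of-ratios scaling. It was 0 after rescaling without storage protein genes, where the median log2 fold change was -0.99, 20 of 21 were negative and 12 had an unadjusted p under 0.05. Over all 16352 genes tested in that fit, the median was -0.60, and 6047 were lower with an unadjusted limma p under 0.05. The count was also 0 with no filter on low values, which left the fold changes of the 21 genes as they were and adjusted p over 33538 genes. With the replicate number as a block it was 0, and with that block and scaling together 0, and the block left 132 calls over all genes. Whether the numbers pair the libraries is not settled here. Deviations of same-numbered libraries from their group mean correlated at -0.53, 0.21 and -0.09, and those of differently numbered ones at -0.56 to 0.54. Deviations within a group sum to 0, so these correlations cannot decide whether libraries were paired. Over all fits that left out 1 library the count ran from 0 to 15. With scaling it was 0 in each, except 4 without mutant replicate 3 (PDIL2-2, PDIL1-4, PDIL5-1 and calreticulin LOC_Os07g14270). In that scaled fit 1268 of all 16352 tested genes fell, against 160 in the scaled fit with all libraries. The cause of this dependence on single libraries was not tested.

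The sign turned after scaling, with and without the block, for LOC_Os01g67054 (0.44), LOC_Os02g02410 (0.38), LOC_Os05g06430 (0.15), LOC_Os05g43170 (0.22), LOC_Os07g34030 (0.13) and LOC_Os12g05760 (0.41, and 0.026 on TPM rescaled without storage genes). With 1 library left out, on TPM or scaled, log2 fold changes ran from -1.15 to 0.70 for LOC_Os01g67054, -1.09 to 0.82 for LOC_Os02g02410, -1.33 to 0.27 for LOC_Os05g06430, -0.77 to 0.51 for LOC_Os05g43170 and -1.13 to 0.38 for LOC_Os07g34030. They ran from -1.53 to 0.0021 for LOC_Os09g27830, -0.99 to 0.079 for LOC_Os09g28480 and -0.34 to 0.57 for LOC_Os12g05760. The summed BiP TPM had a log2 ratio of 0.23 after scaling. With 1 library left out, the difference in the calnexin share ran from -0.0987 to 0.694 percentage points and that of ER oxidoreductin from -0.239 to 0.0256. The count of called splicing events was 0 under every alternative run: read minimums of 10 and 50, no minimum difference, and each library left out. Over all events, the runs with 1 library left out called only 0 to 10, against 30 in the main run, so their 0 adds little. Leaving out the listed wild-type library 3 removed no reads from the 7 events, which list 2 wild-type libraries. With 3 libraries a group and unknown depth, differences in genes of a few TPM were least precise.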
